A study of Rattus norvegicus with 12 samples.

Results

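Interferon regulatory factors (IRFs) are transcription factors that bind DNA elements built around the letters GAAA. Irf3, Irf5 and Irf7 switch on interferon genes when sensors of microbes are engaged, Irf9 is the DNA-binding subunit of a complex that carries the type I interferon signal to its target genes, and Irf1 and Irf2 act on many of the same elements as activator and repressor. Irf4 and Irf8 are known best from lymphocytes, macrophages and dendritic cells, where they bind together with partners such as PU.1 and BATF, and in mouse Irf4 is also known in adipocytes as a nutritionally regulated factor that acts on lipolysis.

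The genes described here were Irf1, Irf2, Irf3, Irf4, Irf5, Irf7, Irf8 and Irf9, 8 of the 13337 genes with a symbol and a probe on the array. They were taken by gene symbol from the table that pairs probes with genes, each gene had 1 probe, and the set was chosen by measured values, the detection and signal of Irf4 under the 2 labels, which were already known. That difference and those of the other IRFs are therefore described by values and intervals, and no p is given for them. RNA of epididymal adipose tissue from male Sprague-Dawley rats aged 40 days was hybridised to 12 arrays of 1 RatRef-12 BeadChip, on which each array is a separate tissue sample. In 6 samples labelled food removed the food had, by the labels, been withdrawn in the morning 6 h before tissue was taken, and the other 6 samples were labelled ad lib. The methods of the study give a somewhat longer interval, begun at night. No agent was given and no allele differed between the groups. The labels do not say whether a number shared by a sample of each group means anything, and p-values measure the spread between these samples.

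The labels and the signals of known nutritional genes ran against each other, which bears on every direction below. Angptl4, an inhibitor of lipoprotein lipase that fasting is known to raise in fat, had a log2 difference of -2.08 (SE 0.27, food removed minus ad lib, n = 6 each), and Pdk4, a kinase of fasting metabolism, one of -2.95 (SE 0.27). The study, in its own comparison of these arrays, lists both Angptl4 and Pdk4 among the genes that rose most after food withdrawal, the opposite direction. The groups are therefore called by their labels, and "labelled food removed" does not settle which rats had food. Position on the chip nearly coincided with the label, since food removed samples lay at positions 1 and 3 to 7 and ad lib samples at positions 2 and 8 to 12. Between 51.25 and 59.64% of probes were detected per array (detection p under 0.05). Epididymis genes were seen on some arrays: Lcn5, a secreted epididymal lipocalin, was above a log2 signal of 8 on food removed replicates 3, 4 and 5 and on ad lib replicate 6 (8.96 to 14.49) and between 4.59 and 6.28 on the other 8.

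The sequences upstream of the genes on which the results turn are shown first. RefSeq promoter windows (GRCr8) of 300 bases, from 250 before to 50 after the start of transcription that the table uses, were found for 7 of the 8 genes, all but Irf2. Those of Irf4 (chr17:33948681-33948980, minus strand), Irf7 (chr1:205799974-205800273, minus strand) and Irf9 (chr15:33065586-33065885, plus strand) are printed 5′ to 3′ along the gene, because Irf4 was the IRF that differed between the labels and Irf7 and Irf9 were the pair that varied together most. Capitals mark the core of an interferon-stimulated response element (ISRE, GAAA, any 2 bases, GAAA) in Irf7 and of a gamma-activated site (GAS, TTCNNNGAA) in Irf9, and Irf4 has neither.
Irf4: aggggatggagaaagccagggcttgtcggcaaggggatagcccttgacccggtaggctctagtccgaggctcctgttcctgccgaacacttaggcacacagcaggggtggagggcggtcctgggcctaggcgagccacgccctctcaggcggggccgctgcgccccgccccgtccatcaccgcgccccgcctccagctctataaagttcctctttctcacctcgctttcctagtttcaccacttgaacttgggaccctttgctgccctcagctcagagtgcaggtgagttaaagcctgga
Irf7: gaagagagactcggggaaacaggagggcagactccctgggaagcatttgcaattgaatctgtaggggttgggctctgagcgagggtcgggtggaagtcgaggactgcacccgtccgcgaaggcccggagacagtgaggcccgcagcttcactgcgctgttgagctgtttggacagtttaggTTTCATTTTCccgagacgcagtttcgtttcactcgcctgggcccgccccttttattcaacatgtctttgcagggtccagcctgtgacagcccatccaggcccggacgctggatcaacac
Irf9: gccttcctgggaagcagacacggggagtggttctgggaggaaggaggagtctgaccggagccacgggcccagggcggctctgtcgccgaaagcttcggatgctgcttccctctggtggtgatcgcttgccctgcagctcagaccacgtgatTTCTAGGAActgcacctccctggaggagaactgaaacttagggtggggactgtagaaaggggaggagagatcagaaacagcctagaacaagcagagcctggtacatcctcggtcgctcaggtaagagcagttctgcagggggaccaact

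Searched on both strands, the ISRE core stood in 1 of the 7 promoters, that of Irf7, where GAAAATGAAA lies on the minus strand of the printed window and so appears above as its reverse complement, 69 bases before the start. All 300-base promoters of the table held it in 1312 of 33469 cases (3.92%). The GAS letters stood in 3 of the 7 promoters against 8.87% of all. They were TTCCCCGAA in Irf1, 142 bases before the start, TTCTAGGAA in Irf9, 99 bases before it, and TTCTCGGAA and TTCAGAGAA in Irf8, 180 and 161 bases before it. The FOXO letters GTAAACA (3.78% of all promoters) and the element shared by ETS factors and IRFs (GGAA, any 2 bases, GAAA), which can overlap the ISRE core (2.94%), were in none of the 7. These are matches of letters within 300 bases and do not show binding.

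Irf4 was dim and was the IRF with a clear difference. It had the lowest mean of the IRFs under the food removed label, while under the ad lib label Irf2 and Irf8 were lower. Its probe, for a gene at chr17:33930460-33948842 (GRCr8), was detected on 0 of the 6 arrays labelled food removed and on 6 of the 6 labelled ad lib. The raw signals were 80.2, 92.1, 96.5, 105.8, 80.9 and 81.0 intensity units in food removed replicates 1 to 6, and 165.6, 149.8, 145.9, 103.5, 159.3 and 111.1 in ad lib replicates 1 to 6. On this raw scale food removed replicate 4, the brightest array by its median, passed ad lib replicate 4, the dimmest array, so the groups overlapped by that 1 pair. The detection p, set by the negative control beads of each array, ran from 0.234 to 0.825 on the food removed arrays and was 0 on every ad lib array.

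After background correction and quantile normalization the Irf4 log2 signals were 4.41, 4.63, 4.68, 4.65, 4.48 and 4.46 in the food removed samples and 5.94, 5.96, 6.63, 6.09, 6.30 and 5.49 in the ad lib samples. Every ad lib value lay above every food removed value, and the food removed values, all of them undetected, spread less. The means were 4.55 ± 0.12 and 6.07 ± 0.38 (SD, n = 6 each), a log2 difference of -1.52 (SE 0.16, 95% interval -1.86 to -1.18). Because the food removed signals were not above background, the fold has only a bound on this scale: against the mean of the lowest detected signal of those arrays (5.12 log2), Irf4 was at least 1.93-fold higher in the ad lib samples. The measured signals gave 2.86-fold. The bound, 0.95 on the log2 scale, holds for this background correction only, since the difference was -0.69 without background correction and -0.82 with an offset of 50. Ad lib replicate 1 at chip position 2, with 5.94, lay between food removed arrays at positions 1 (4.41) and 3 (4.63), which is the only place on the chip where the labels alternate.

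**Figure D1:**
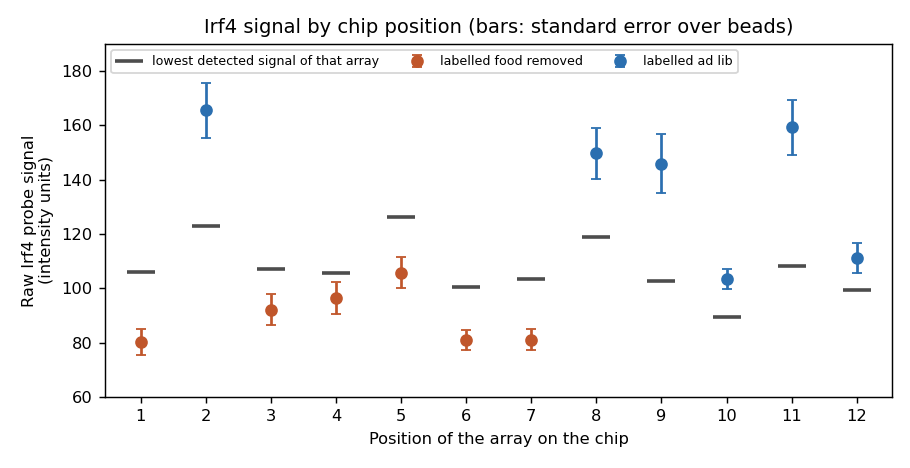
Raw signal of the Irf4 probe (intensity units) against the position of the array on the chip, with the standard error over 26 to 51 beads, and a dash for the lowest detected signal of the same array. The 6 arrays labelled food removed lie below their dash and the 6 labelled ad lib above it, position 2 included.

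Among all 12196 probes tested, 1 was detected on no food removed array and on every ad lib array (0.0082%), and this was Irf4. The reverse pattern was as frequent, with 1 probe detected on every food removed array and on no ad lib array. By the limma fit with Benjamini-Hochberg adjustment, 2.47% of probes passed an adjusted p under 0.05, 1.42% lower and 1.05% higher under the food removed label, and 2.5% had groups that did not overlap. Irf4 was among the probes of both kinds and the other 7 IRFs were among neither, and since Irf4 met the filter only through its ad lib arrays and the set was chosen on this contrast, that count restates the choice and nothing is read from it. All 8 met the filter of detection on at least 6 of 12 arrays.

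The factors that induce interferon came next in role. Irf3, the factor that TBK1 phosphorylates when viral nucleic acid is sensed (chr1:104616608-104621402), was detected on 12 arrays. Its log2 signals were 10.64, 10.77, 10.57, 10.52, 10.83 and 10.78 in the food removed samples and 10.49, 10.27, 11.73, 11.47, 11.18 and 11.43 in the ad lib samples. The ad lib samples were split, with replicates 3 to 6 above every food removed value and replicates 1 and 2 below every one, so the SD was 0.59 against 0.13. The log2 difference was -0.41 (SE 0.22, 95% interval -0.89 to 0.07), and it was -0.06 with chip position as a covariate.

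Irf7, the factor that amplifies type I interferon production and is itself an interferon-stimulated gene (chr1:205796956-205800543), had log2 signals of 10.21, 10.19, 9.25, 9.28, 9.45 and 10.18 in the food removed samples and 9.47, 10.40, 10.71, 9.62, 9.74 and 9.25 in the ad lib samples. The food removed samples fell into 2 sets, replicates 1, 2 and 6 at 10.18 to 10.21 and replicates 3, 4 and 5 at 9.25 to 9.45, and the ad lib values spanned both sets. The log2 difference was -0.11 (SE 0.27, 95% interval -0.68 to 0.47), the widest interval of the 8. Irf5, which drives inflammatory cytokines in macrophages (chr4:59092914-59104596), ran from 7.48 to 8.39 in the food removed samples and from 8.0 to 8.34 in the ad lib samples. The lowest value belonged to food removed replicate 3, the array with the highest Lcn5, and the log2 difference was -0.08 (SE 0.15, 95% interval -0.40 to 0.25). Neither sign was stable for Irf5 and Irf7, which were lower under the food removed label in 21 and 20 of 25 alternative settings.

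Irf9 (chr15:33065422-33071881) had log2 signals of 8.80, 8.80, 8.24, 8.32, 8.11 and 8.85 in the food removed samples and 8.5, 8.98, 9.28, 9.04, 8.62 and 8.19 in the ad lib samples. As for Irf7, food removed replicates 3, 4 and 5 and ad lib replicate 6 were the lowest arrays. The log2 difference of Irf9 was -0.25 (SE 0.20, 95% interval -0.67 to 0.18).

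Irf1 and Irf2 act at shared sites in opposite ways. Irf1 (chr10:38417935-38424946), the activator that interferon gamma induces, ran from 10.62 to 11.20 in the food removed samples and from 10.71 to 11.15 in the ad lib samples, with a log2 difference of -0.08 (SE 0.12, 95% interval -0.32 to 0.17), the narrowest interval of the 8. Irf2 (chr16:52171855-52283620), the repressor, was near background, with detection on 5 food removed and 4 ad lib arrays. Its log2 signals ran from 4.93 to 5.82 and from 4.72 to 5.83, the groups covered nearly the same range, and the difference was 0.20 (SE 0.19, 95% interval -0.21 to 0.62).

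Irf8, the closest relative of Irf4 in the family and a factor of monocytes and dendritic cells (chr19:65699284-65721066), was also dim but did not share the pattern of detection. It was detected on 4 food removed arrays and on 3 ad lib arrays. The log2 signals were 5.43, 5.94, 5.39, 4.77, 4.88 and 5.78 in the food removed samples and 4.97, 5.18, 4.63, 5.78, 5.42 and 4.71 in the ad lib samples, with the undetected arrays lowest in both groups. The difference was 0.25 (SE 0.24, 95% interval -0.26 to 0.76).

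**Figure D2:**
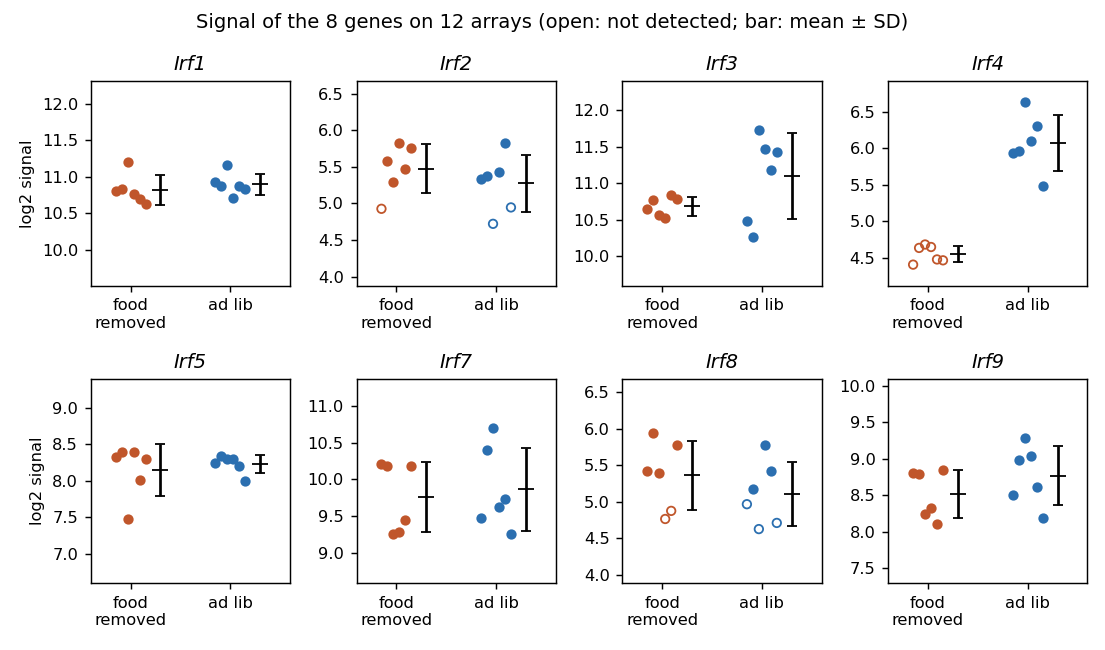
Log2 signal of the 8 IRF probes on each array, by label, with open circles for arrays where the probe was not detected and the mean ± SD of 6 arrays beside the points; each panel has its own range. The groups are apart for Irf4, where every food removed circle is open, and overlap for the other 7 genes.

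**Figure D3:**
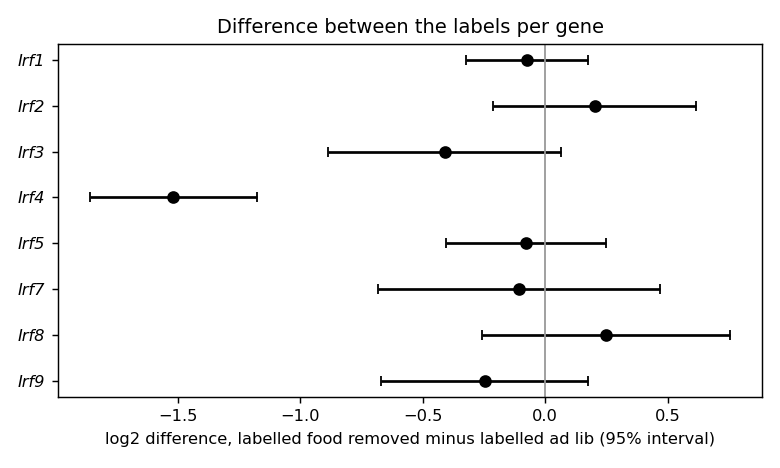
Log2 difference of each IRF, labelled food removed minus labelled ad lib, with its 95% interval from the limma fit. The interval of Irf4 (-1.86 to -1.18) lies left of 0 and those of the other 7 genes lie on both sides of 0, as a description of spread.

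The genes around the IRFs were read from the same fit in 6 lists, with 101 distinct genes tested, of which 2 passed an adjusted p under 0.05 (1.98%, beside the 2.47% of all probes). Among ligands and receptors, 0 of the 8 tested genes passed (1 at an unadjusted p under 0.05, as 1941 of the 12196 probes had), and the median log2 difference was -0.04, beside -0.02 over all probes. The 4 with the smallest p were the receptor subunits Ifngr1 (-0.39, adjusted p = 0.174), Il10rb (-0.19, adjusted p = 0.361), Ifngr2 (-0.21, adjusted p = 0.505) and Ifnar1 (0.27, adjusted p = 0.623). Of the sensors, adaptors and kinases that act on Irf3, Irf5 and Irf7, 0 of 22 passed (1 unadjusted), with a median of -0.03. The kinase subunit Ikbkb (-0.30, adjusted p = 0.313), the RNA sensor Ifih1 (-0.33, adjusted p = 0.358), the ligase Traf6 (0.26, adjusted p = 0.37) and the receptor Tlr2 (0.21, adjusted p = 0.439) came first.

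Of the genes that type I interferon induces, on whose elements Irf9 and Irf7 act, 1 of 27 was lower under the food removed label and 0 higher (2 unadjusted). It was Oas1k, an oligoadenylate synthetase family member, with a log2 difference of -0.81 (SE 0.20, adjusted p = 0.0482, limma), detected on 3 food removed and 6 ad lib arrays. It passed in 4 of 24 alternative settings, and of the 12 settings that left out 1 array only those without ad lib replicate 1 (adjusted p = 0.0411) and food removed replicate 4 (adjusted p = 0.0189) kept it past the threshold, the others giving up to 0.119. With chip position as a covariate its adjusted p was 0.506, and cross-hybridisation with the other Oas1 genes cannot be told apart from its own signal. The median of the list was -0.16, and 22 of the 27 differences were below 0 (81.5%), beside 53.4% of all probes. Ifi44l (-0.49, adjusted p = 0.209), Oas1a (-0.74, adjusted p = 0.341) and Ifit3 (-0.47, adjusted p = 0.349) followed.

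Of the genes that interferon gamma induces, 0 of 24 passed (3 unadjusted), 16 were below 0 (66.7%) and the median was -0.11. Cxcl9, a chemokine for activated T cells, came first, with log2 signals from 10.99 to 11.93 in the food removed samples and from 11.89 to 12.33 in the ad lib samples. Food removed replicate 2 alone reached into the ad lib range, and the difference was -0.58 (SE 0.14, adjusted p = 0.0516). It passed in 7 of 25 alternative settings, over which the adjusted p ran from 0.0265 to 0.424. Of the 12 settings that left out 1 array, it passed only without food removed replicate 2 (adjusted p = 0.0339) or 4 (adjusted p = 0.0414). The guanylate-binding proteins Gbp4 (-0.40, adjusted p = 0.275) and Gbp2 (-0.31, adjusted p = 0.325) and the adhesion molecule Icam1 (-0.37, adjusted p = 0.299) came next.

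Among DNA-binding partners and co-regulators, 1 of 10 was higher and 0 lower (5 unadjusted, in both directions). Bcl6, a repressor that Irf4 is known to repress in germinal centre B cells, had log2 signals of 11.02, 11.48, 10.60, 11.38, 10.02 and 10.30 in the food removed samples and 9.88, 9.64, 9.77, 9.39, 9.70 and 10.04 in the ad lib samples. Ad lib replicate 6 just passed food removed replicate 5, both of them arrays with high Lcn5, and the other values kept apart. The difference was 1.07 (SE 0.23, adjusted p = 0.0271), and it passed in 14 of 25 alternative settings. Its adjusted p was 0.0551, 0.0564, 0.0705, 0.0666 and 0.0587 without ad lib replicates 3, 4 and 5 and food removed replicates 1 and 2 in turn, and 0.39 with chip position as a covariate. Batf, the AP-1 partner with which Irf4 binds in lymphocytes, was at 5.06 to 6.00 and 5.70 to 6.54, with a difference of -0.57 (SE 0.18, adjusted p = 0.115). Tcf3 (0.30, adjusted p = 0.152) and Irf2bpl, a relative of the Irf2 co-repressors (0.32, adjusted p = 0.228), came next.

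Of the adipocyte genes tied to Irf4 in mouse, 0 of 10 passed (2 unadjusted), and the median difference was 0.05. The lipases of fat mobilisation, which are also on the adipocyte marker list below, led the list. Hormone-sensitive lipase, Lipe, had a log2 difference of -0.53 (SE 0.16, adjusted p = 0.108). Its adjusted p was 0.0362 without food removed replicate 4, 0.0814 to 0.215 without any other single array, and 0.677 with chip position as a covariate. Adipose triglyceride lipase, Pnpla2, had a log2 difference of -0.40 (SE 0.13, adjusted p = 0.134). The Pnpla2 groups did not overlap, at 13.43 to 14.22 and 14.26 to 14.50, as for 2.5% of all probes. Dgat2, an enzyme of triglyceride synthesis (0.18, adjusted p = 0.487), and Srebf1, a regulator of fatty acid synthesis (0.26, adjusted p = 0.511), followed.

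**Figure D4:**
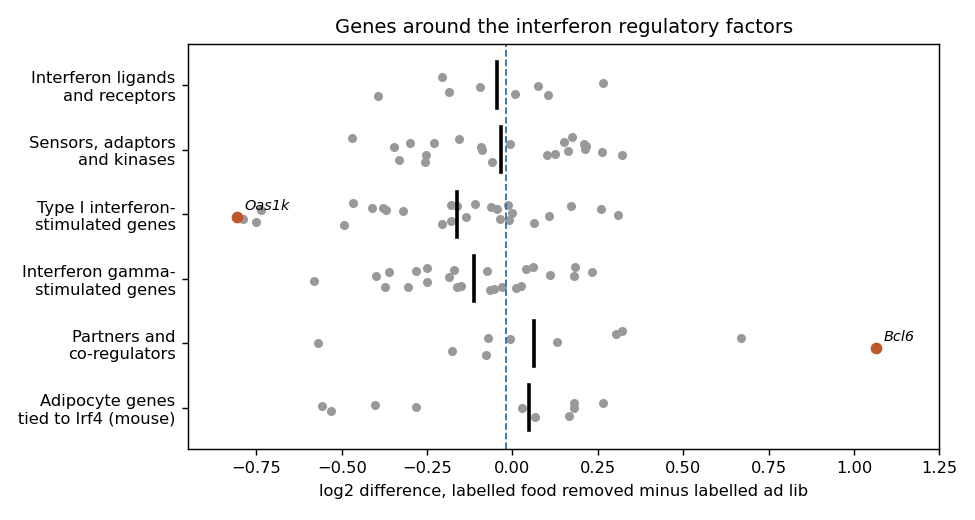
Log2 difference, labelled food removed minus labelled ad lib, of each tested gene in the 6 lists, with a black bar at the median of the list and a dashed line at the median of all probes (-0.02). Oas1k (-0.81) and Bcl6 (1.07), in red, were the 2 genes with an adjusted p under 0.05.

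Cells that could carry Irf4 were followed by their markers, since in whole tissue fewer cells of a type and less RNA per cell cannot be told apart. Of 10 tested macrophage markers 0 passed (1 unadjusted), and the summed normalized signal of the list, on the linear scale, was 12174 to 20816 in the food removed samples and 15788 to 22888 in the ad lib samples. Cd14 (-0.48, adjusted p = 0.259) and Aif1 (0.07, adjusted p = 0.91) were the brightest of them, and Cx3cr1 and Marco were detected on no array. All other tested macrophage markers were below 0. They were Cd163 (-0.39, adjusted p = 0.399), Adgre1 (-0.37, adjusted p = 0.355), C1qb (-0.16), C1qc (-0.16), C1qa (-0.13), Itgam (-0.09), Fcgr1a (-0.07) and Mrc1 (-0.01). Of 5 tested dendritic cell markers 0 passed (1 unadjusted), with sums of 2536.2 to 4609.2 and 3358.5 to 4927.2. Clec10a (-0.22, adjusted p = 0.577) and Cd83 (-0.27, adjusted p = 0.453) were brightest. The marker with an unadjusted p under 0.05 was Clec9a, which was higher under the food removed label (0.40, adjusted p = 0.234). It was detected on 6 food removed and 2 ad lib arrays. Of the other tested markers, Ccr7 (0.06, adjusted p = 0.875) was above 0 and Flt3 (-0.16, adjusted p = 0.869) below it.

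Lymphocyte markers were dim. Of 8 B cell markers with a probe 1 was tested, Cd79b (0.40, adjusted p = 0.335), while Cd22, Mzb1, Pax5 and Tnfrsf17 were detected on no array, and the summed signal was 221.08 to 303.3 in the food removed samples and 219.57 to 291.15 in the ad lib samples. Of 7 tested T cell markers 0 passed (0 unadjusted), with sums of 535.02 to 981.9 and 496.94 to 842.46. Lck (-0.20, adjusted p = 0.719) and Cd4 (0.02, adjusted p = 0.977) were brightest, and Cd5, Foxp3 and Trat1 were detected on no array. Of the other tested T cell markers, Cd8a (0.95, adjusted p = 0.53), Cd247 (0.42, adjusted p = 0.544), Cd3g (0.14) and Cd6 (0.12) were above 0. Cd3d (-0.01) was below it. The adipocyte markers were bright on every array, at 113780 to 141580 and 133300 to 153950 in sum. Of the 9 markers 1 passed (3 unadjusted, with Lipe and Pnpla2 the others), the hormone Lep, which was 1.55 higher on the log2 scale under the food removed label (adjusted p = 0.0255). Cfd (0.04, adjusted p = 0.875) and Lpl (0.02, adjusted p = 0.942) were the brightest. The remaining adipocyte markers, named here after their values were seen, lay on both sides of 0. Cidec (-0.33, adjusted p = 0.331), Adipoq (-0.17, adjusted p = 0.582) and Retn (-0.03, adjusted p = 0.982) were below 0 and Fabp4 (0.07, adjusted p = 0.869) above it. Of 5 tested epididymis markers 0 passed (0 unadjusted), with sums of 398.75 to 141670 and 427.59 to 3127.2, and Lcn5 (1.56, adjusted p = 0.705) and Rnase10 (1.48, adjusted p = 0.582) were brightest. The part of cell composition in the Irf4 difference was not tested.

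How the IRFs varied among themselves was measured on what the choice of genes had not used, the deviations of each array from the mean of its label. Over the 28 pairs, 0 passed after adjustment, by Pearson's r or by Spearman's rho (permutation within labels), and 3 had an unadjusted p under 0.05. The closest pair was Irf7 with Irf9, with r = 0.881 (permutation p = 0.0023, adjusted p = 0.0644) and rho = 0.846 (permutation p = 0.00233, adjusted p = 0.0652) over 12 arrays. Without the 2 arrays farthest from the median of Irf7, r was 0.848. It was 0.942 among the 6 food removed arrays, where Irf7 fell into 2 sets of 3 and r mostly describes the gap between them, and 0.839 among the 6 ad lib arrays.

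Irf5 was in the other pairs. With Irf9 it gave r = 0.58 (permutation p = 0.0137, adjusted p = 0.192) and rho = 0.629 (permutation p = 0.0266, adjusted p = 0.372), and r = 0.515 without the 2 farthest arrays. With Irf7 it gave r = 0.534 (permutation p = 0.0392, adjusted p = 0.366) and rho = 0.483 (permutation p = 0.086), and r = 0.326 without the 2 farthest arrays.

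The arrays with high Lcn5 were low for the pair, with a cutoff of 8 that was chosen after seeing the data. Other epididymis genes were less even over these arrays. Of 12 such genes, 10, 7 and 2 were detected (detection p under 0.01) on food removed replicates 3, 4 and 5. Ad lib replicate 6 had 3, and the arrays with low Lcn5 had 0 to 2. Irf7 was at 9.25 to 9.45 on the 4 arrays with Lcn5 above 8 and at 9.47 to 10.71 on the other 8, and Irf9 was at 8.11 to 8.32 and 8.5 to 9.28, so both genes had their 4 lowest values on those arrays. On the 8 other arrays r of Irf7 with Irf9 was 0.772. Irf4 was lowest among the ad lib samples on the one of these arrays that carried that label, replicate 6, at 5.49. The part of epididymal tissue in these levels was not tested.

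Some interferon-stimulated genes varied with Irf7 across the arrays, and others did not. As a description over 12 arrays that share chip and normalization, the correlation of deviations with Irf7 had a median of 0.648 over the 27 type I interferon-stimulated genes, beside 0.106 over all 12195 other probes. It was above 0.7 for 9 of the 27 (33.3%), for 5 of the 24 interferon gamma-stimulated genes (20.8%) and for 3.27% of all probes. Highest were the protease Usp18 (0.903), the antiviral GTPase Mx1 (0.862) and the synthetase family members Oas1a (0.819), Oasl (0.813) and Oasl2 (0.812), followed by Mx2 (0.756), Oas1i (0.743), Rtp4 (0.74) and Ifit3 (0.70). These 9 genes were picked for their correlation with Irf7, so a likeness to Irf7 in the order of arrays is built into the choice. At the lower end of the 27 were Ifit1 (0.08) and Ifi35 (-0.05), and Oas1k was at 0.419. Outside the lists, Mrpl53 (0.952), Emc4 (0.944) and Tmem54 (0.925) were closer to Irf7 than any of the 27. In 6 of these 9 genes food removed replicates 3, 4 and 5 were the lowest food removed arrays. In the others, Mx2, Rtp4 and Ifit3, food removed replicate 4 lay above the food removed mean, by 0.45, 0.23 and 0.35 log2. That array also lay above this mean in Usp18 (0.05), Oas1a (0.07) and Oasl (0.26). It was below the mean in Mx1 (-0.21), Oasl2 (-0.07) and Oas1i (-0.12). The ad lib array with high Lcn5, replicate 6, was the lowest ad lib array in 3 of the 9, and replicate 4, where Lcn5 was at 5.09, in the other 6. Ad lib replicate 3 was the highest of the ad lib arrays for Irf7 and Irf9.

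Of the 9 genes 6 had a promoter in the table, and 4 of those held the ISRE core, against 3.92% of all promoters. The 30-base windows around the match are printed 5′ to 3′ on the strand of the motif, with the core in capitals, to be set beside the Irf7 promoter above. They lie at chr12:41330415-41330444 for Oas1a, chr12:41285180-41285209 for Oas1i, chr12:47383317-47383346 for Oasl2 and chr1:241527272-241527301 for Ifit3 (GRCr8).
Oas1a: cccctctcggGAAATGGAAActgaaaatct
Oas1i: cccctcccggGAAATCGAAActgaaaatct
Oasl2: ctcaagcctgGAAACTGAAAccaaagcttt
Ifit3: gtggaaactaGAAACTGAAAcagacttaaa

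In Oas1a and Oas1i another match overlaps the one shown, and these near-identical windows belong to neighbouring copies of 1 family. Over the lists, the ISRE core was in 14 of 19 promoters of type I interferon-stimulated genes (73.7%) and in 15 of 24 of interferon gamma-stimulated genes (62.5%), and in 0 of 9 promoters of the adipocyte genes tied to Irf4 in mouse.

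**Figure D5:**
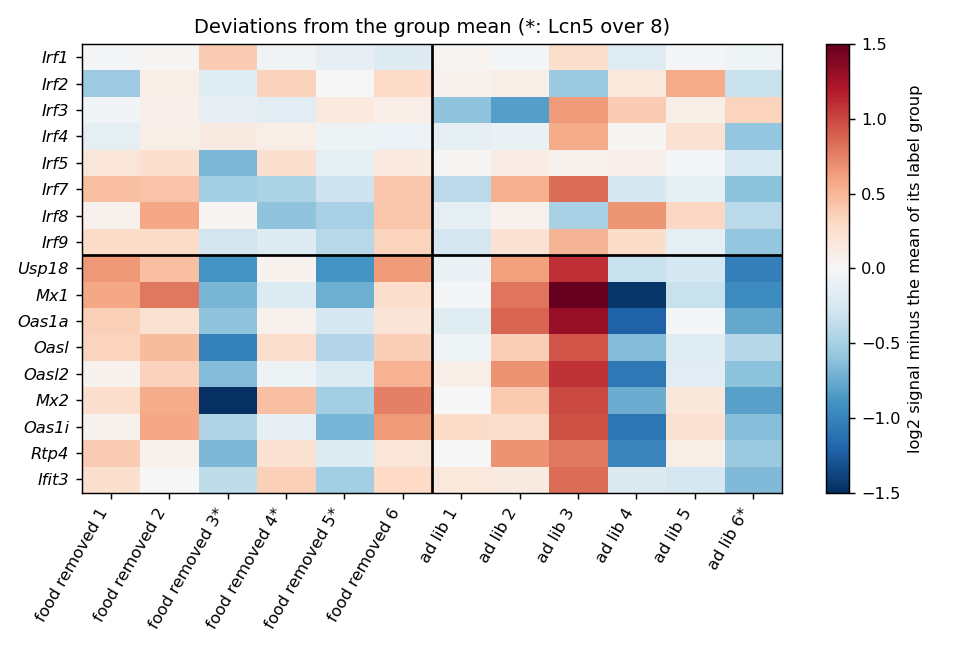
Deviation of the log2 signal of each array from the mean of its label, for the 8 IRFs and the 9 type I interferon-stimulated genes with r of 0.7 or more with Irf7; an asterisk marks arrays with Lcn5 above 8. Irf7, Irf9 and the 9 genes share blue columns at food removed replicates 3 and 5 and ad lib replicate 6 for most genes. All of them are red at ad lib replicate 3. Ad lib replicate 4, which has no asterisk, is also below 0 for Irf7 and the 9 genes, but above 0 for Irf9. Irf4 was undetected on the food removed arrays, so its deviations there are background.

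The genes whose pattern was most like that of Irf4 depended on whether the label difference was kept. With it, over 12 arrays, they were the clock gene Per1 (r = 0.937), the interleukin-2 receptor subunit Il2ra (0.931), Hs2st1 (0.928), Pdk4 (0.925), Gadd45g (0.924) and Hace1 (0.921). All 6 were lower under the food removed label, by -1.85, -2.30, -1.41, -2.95, -1.5 and -0.60 on the log2 scale, and all 6 passed an adjusted p under 0.05, so these correlations restate that difference. For Per1 and Pdk4 the study reports a rise after food withdrawal on these arrays, the opposite direction. Il2ra came nearest in detection, with 1 food removed and 6 ad lib arrays.

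With the label means removed they were Crabp1 (r = 0.894), Zfp202 (0.854), Hace1 (0.843), Plekha2 (0.84), Suv39h2 (0.798) and Cyp4v3 (0.792). Spearman's rho was lower for each, from 0.531 for Hace1 to 0.825 for Zfp202. Irf4 itself deviated most in ad lib replicates 3 (0.56) and 6 (-0.58). These genes, and those for Irf7 and Irf8 below, were picked as the highest among the tested probes, so a high r is built into the choice. The likeness was closer on the ad lib arrays, with r from 0.887 to 0.975, than on the food removed arrays, where Irf4 was undetected and r was 0.212 to 0.682. The genes most like Irf7 by the same measure were Mrpl53 (0.952), Emc4 (0.944) and Tmem54 (0.925), and those most like Irf8 were Def8 (0.887), Pomgnt2 (0.878) and Cyth3 (0.867).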

How the data were processed

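Rat epididymal fat RNA was hybridised to a single RatRef-12 BeadChip of 12 arrays, 6 per label. The authors deposited, from GenomeStudio per the labels, raw probe signal intensity, bead numbers and standard errors, and a detection p-value against negative control probes; the deposited second table holds normalized intensity, with values below 0, and served as an alternative. Raw signals were background-corrected (normexp with control moments from the detection p-values, offset 16), quantile-normalized and log2-transformed with limma 3.58.1 in R 4.3.3. The model had label as its only term, with empirical Bayes moderation, a two-sided test and Benjamini-Hochberg adjustment over the 12196 of 22523 probes detected on at least 6 of 12 arrays. The cubic spline normalization named in the methods was not rerun. Of the probes, 13793 had 1 gene symbol and 8730 none; probes without a symbol were not named.

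The members, gene lists, marker lists and tests were chosen with earlier results of these data known. Named were all 8 IRFs, every listed gene that passed and the 4 of each list with the smallest p, the 2 brightest markers of each list, and the genes most correlated with Irf4, Irf7 and Irf8. Further macrophage, dendritic cell, T cell and adipocyte markers were named after their values were seen. A gene was represented by its brightest probe. Pairs were tested with 100000 permutations within labels (Python 3.11.15, SciPy 1.17.1). Intensities have no read depth, and 6 arrays per label limit the precision. No arrays were identical. Alternatives covered background correction, normalization, filter, array weights, an unpaired t-test, replicate block, chip position and omission of arrays, and 1 alternative was chosen after seeing the data.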

Additional observations from a re-analysis of the deposited data

Results flagged for a closer look

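In the groups of 6 arrays, 1 value stood apart from the rest by the gap to its nearest neighbour. Irf1 was at 11.20 log2 signal in food removed replicate 3, against 10.83 in the next highest food removed sample, a gap of 0.639 of the whole range of the group, above Dixon's critical value for 6. The array is the one with the highest Lcn5 signal (14.49) and with 10 of 12 epididymis genes detected, and their part in the Irf1 value was not tested. The check was run on 28 groups (14 genes in both labels), and chance alone marks about 1 in 20.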

How the results depend on the processing

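The number of probes with an adjusted p under 0.05 was 301, and it was 103 with arrays scaled by a median shift, without quantile normalization (54 higher and 49 lower, so 47.6% lower against 57.5%), 840 with array weights, 178 with the replicate block and 32 with chip position as a covariate. Leaving out 1 array gave 157 to 483, with 183, 180, 187 and 186 without food removed replicates 1, 2, 5 and 6, 483 without food removed replicate 4 and 157 without ad lib replicate 5. An unpaired t-test, named in the general statistics of the study, gave 781 probes at an unadjusted p under 0.01. After adjustment it gave 230 under 0.05 and 29 under 0.01. For its arrays the study used the array software with a false discovery rate and a minimum signal, which was not rerun. Irf4 ranged from -1.76 to -0.69 (log2) over 24 alternatives, with the smallest sizes, -0.69 and -0.82, without background correction and with offset 50, -1.53 with chip position, and -1.63 to -1.41 when 1 array was left out. The count of IRFs past the threshold, which the choice of genes fixes, was 1 in 24 of 25 settings and 0 with detection required on all 12 arrays, where Irf4 was not tested. Of the listed pathway genes 2 passed, against 0 with a median shift, 0 without a detection filter, 0 with the t-test, 0 with the replicate block, 0 with chip position, 1 with the authors' normalized signals, 4 with array weights, 1 without the arrays with 5 or more epididymis genes and 1 without those with Lcn5 above 8 (the last chosen after seeing the data); leaving out 1 array gave 0 to 4. It was 0 without food removed replicate 1 or ad lib replicates 3, 4 or 5, 1 without food removed replicates 2, 3, 5 or 6 or ad lib replicate 2, and 4 without food removed replicate 4. The correlation of Irf7 with Irf9 was 0.772 instead of 0.881 without the arrays with Lcn5 above 8, and 0.842 to 0.967 when 1 array was left out. Settings that leave out arrays fit fewer samples, and for the other settings the cause was not tested. Samples with the same replicate number did not deviate together (r from -0.41 to 0.128, 2 of 6 over 0.1, and 0 of 6 closest to their own number), so the numbers were not taken as pairs. Dim signals limit Irf2, Irf4, Irf8 and Oas1k, which were undetected on part of the arrays.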
